A study of Mus musculus with 8 samples.

Results

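The genes described here are 9 transcripts that mark neutrophils, out of 39056 genes counted in heart samples of 4 HVCN1 null and 4 WT mice. They are S100a8, S100a9, Camp, Ngp, Lcn2, Retnlg, Il1b, Csf3r and Cxcr2, and they were taken by name as a list of cell type markers. The rule used no measured value, but the list was drawn up with earlier results of these hearts known. None of them was found to differ between the genotypes. All 9 overlapped between the groups, which is usual here, since only 7.06% of all tested genes did not overlap. The larger part of the variation lay between single hearts: S100a8 and S100a9 ranged 7.35-fold and 6.50-fold over the 8 hearts, rose and fell together, and did so in both groups. The mice were 3-month-old males on the C57BL/6 background, and the null animals carried a knockout of Hv1 (Hvcn1), the gene of the voltage-gated proton channel. RNA came from unsorted heart tissue, with 1 library per heart (null hearts 1 to 4, WT hearts 5 to 8). Whether blood was flushed from the hearts before extraction is not given in the sources used here.

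Neutrophils are short-lived phagocytes that are made in the bone marrow and circulate in blood. While they mature in the marrow they transcribe the genes of their granule proteins in stages, and most of these transcripts are gone by the time the cell is released. Mature cells keep large amounts of S100A8 and S100A9 and depend on the receptors CSF3R and CXCR2. The HVCN1 channel is itself strongly used by neutrophils, where it carries protons out of the cell while the NADPH oxidase is active.

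Total counts ran from 25851255 to 38874640 per heart. Hvcn1 had 6, 6, 1 and 3 counts in the null hearts and 102, 49, 99 and 68 in the WT hearts, in keeping with the labels (log2 fold change -4.20 ± 0.38 SE, adjusted p = 0.000363 by edgeR's quasi-likelihood test). The 6 cardiomyocyte markers summed to 47300 to 61200 CPM per heart. The 5 atrial markers summed to 3180 to 8170 CPM in hearts 2, 3, 5 and 7 and to 84.8 to 312 CPM in hearts 1, 4, 6 and 8, with both kinds in each group. Erythroid markers also varied, from 1320 CPM in null heart 2 to 15400 CPM in WT heart 5. Here CPM is counts per 1000000 of the library size after TMM scaling, and 3 counts correspond to 0.0759 to 0.114 CPM depending on the heart.

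Sequence upstream of the start of transcription is shown for the S100a8 and S100a9 pair, whose transcripts moved together, and for Ngp, which was almost without counts. It is RefSeq sequence of GRCm38.p6, 5′ to 3′ on the strand of the gene, up to the first base annotated as exon. The windows are chr3:90668821-90668977 on the + strand for S100a8, chr3:90695722-90695971 on the - strand for S100a9, and chr9:110419558-110419746 on the + strand for Ngp. Capitals mark matches, on either strand, to TTNNGCAA, a form of the site bound by C/EBP factors, or to GAGGAA, a core bound by PU.1, both of which are regulators of myeloid genes.
S100a8: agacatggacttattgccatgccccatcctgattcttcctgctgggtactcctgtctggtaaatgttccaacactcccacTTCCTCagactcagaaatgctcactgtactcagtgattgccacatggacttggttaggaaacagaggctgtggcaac
S100a9: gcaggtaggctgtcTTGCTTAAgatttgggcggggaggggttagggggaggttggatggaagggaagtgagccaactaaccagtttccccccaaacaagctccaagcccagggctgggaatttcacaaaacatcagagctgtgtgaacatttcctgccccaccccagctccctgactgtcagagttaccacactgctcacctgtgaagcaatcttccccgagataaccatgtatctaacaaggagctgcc
Ngp: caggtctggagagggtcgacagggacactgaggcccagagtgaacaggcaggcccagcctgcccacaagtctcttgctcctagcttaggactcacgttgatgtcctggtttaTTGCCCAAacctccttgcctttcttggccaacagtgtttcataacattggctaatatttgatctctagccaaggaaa
In these stretches S100a8 held 1 GAGGAA match, while S100a9 and Ngp held 1 TTNNGCAA match each. Over the 250 bases before the start, S100a9, Ngp, Lcn2 and Retnlg of the 9 genes held TTNNGCAA (for Retnlg, the bases after the start were not found in its annotated transcript, so the place of its window is uncertain), and S100a8, Lcn2, Csf3r and Cxcr2 held GAGGAA. Among all 32851 windows of this length TTNNGCAA was found in 9.56% and GAGGAA in 23.3%. The matches are given as a description, and whether they are more frequent in the 9 genes was not tested.

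S100a8 and S100a9 encode the subunits of calprotectin, a calcium- and zinc-binding protein that fills the neutrophil cytosol and acts as an alarm signal when released. S100a8 (ENSMUSG00000056054, chromosome 3, 90668978 to 90670035 in GRCm38) had 73, 44, 159 and 114 counts in hearts 1 to 4 (HVCN1 null), against 342, 66, 89 and 191 in hearts 5 to 8 (WT). In S100a9 (ENSMUSG00000056071, chromosome 3, 90692632 to 90695721), which lies 22596 bases away, the counts were 61, 55, 178 and 175 in null hearts and 378, 97, 102 and 225 in WT hearts. WT hearts 5 and 8 and null heart 3 were high for both genes, null hearts 1 and 2 and WT hearts 6 and 7 were low, and the groups overlapped. S100a8 was 3.16 ± 2.10 CPM in null and 4.87 ± 3.22 CPM in WT (± SD over 4 hearts each), with a log2 fold change of -0.64 (95% interval -1.85 to 0.57, edgeR quasi-likelihood adjusted p = 0.801). S100a9 was 3.75 ± 2.54 and 5.71 ± 3.41 CPM, with a log2 fold change of -0.62 (95% interval -1.81 to 0.57, edgeR quasi-likelihood adjusted p = 0.808). For each gene the difference in mean CPM was smaller than the SD of either group. The exact permutation p of that difference was 0.400 for S100a8 and 0.371 for S100a9 (two-sided). The intervals run from -1.85 (S100a8) or -1.81 (S100a9) to 0.57 on the log2 scale, so that 4 hearts a group left both a large fall and a moderate rise possible. Single hearts moved both values: without WT heart 5 the log2 fold changes of S100a8 and S100a9 were -0.19 and -0.23, and without null heart 3 they were -1.15 and -1.06.

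The spread of this pair was far beyond counting error. Within a group, Pearson's chi-square divided by its degrees of freedom, which is near 1 when hearts differ by counting error only, was 44.2 (null) and 76.8 (WT) for S100a8. For S100a9 it was 56.5 and 73.7. The ratio of S100a9 to S100a8 counts stayed between 0.836 and 1.54 in the 8 hearts, so that the genes kept nearly the same proportion while their level changed severalfold. Over the 8 hearts the log2 CPM of the genes correlated with Pearson's r = 0.96 (permutation p = 2.23e-04, adjusted p = 0.00469 over 21 pairs of genes) and Spearman's rho = 0.93 (permutation p = 0.00223, adjusted p = 0.0469). When hearts 5 and 8, the most distant from the median S100a8 level, were left out, r stayed at 0.93 (n = 6, exact permutation p = 0.00694).

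**Figure D1:**
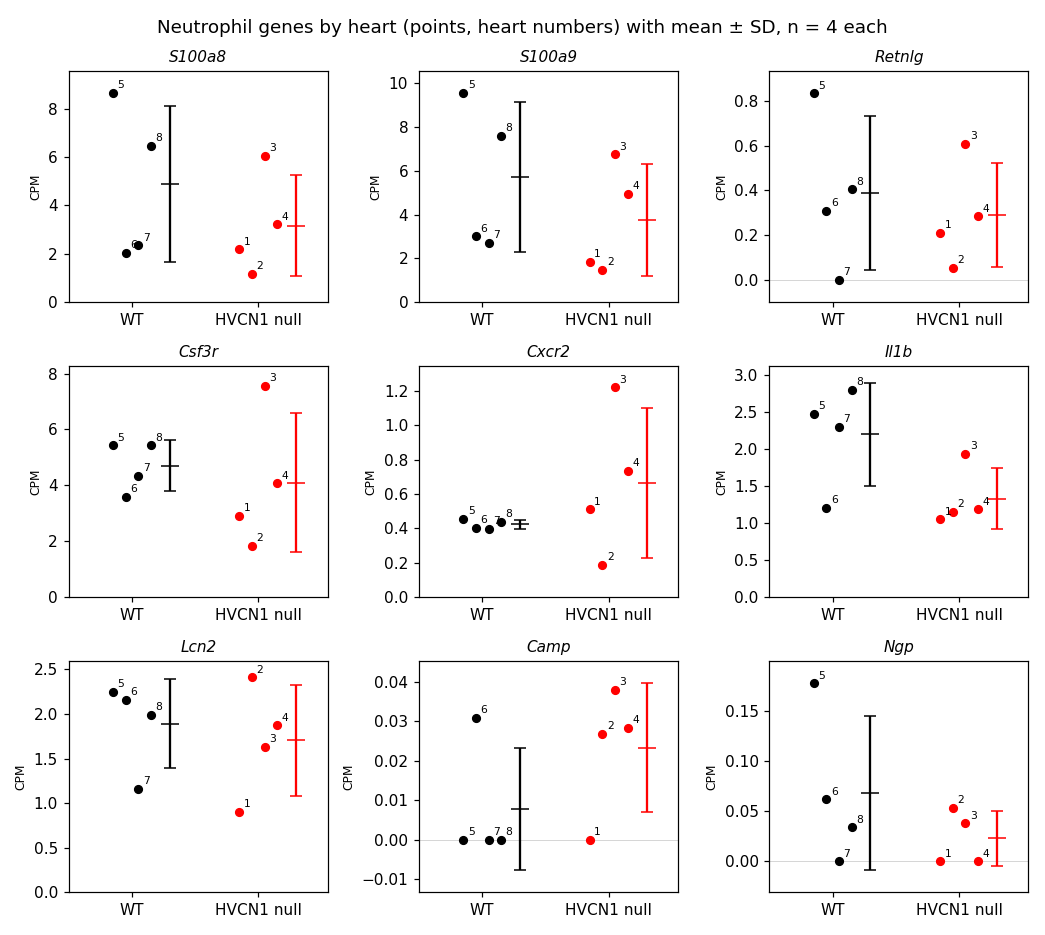
CPM of the 9 neutrophil genes in each heart (points, with heart numbers), WT in black and HVCN1 null in red, with the group mean ± SD beside them (n = 4 each). The groups overlap in every panel, hearts 3, 5 and 8 are high for S100a8 and S100a9, and Camp and Ngp lie near 0.

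Granule proteins were followed by Camp, Ngp and Lcn2. Camp (ENSMUSG00000038357, chromosome 9, 109847379 to 109849617 in GRCm38), which encodes the antimicrobial peptide cathelicidin, had 0, 1, 1 and 1 counts in null hearts and 0, 1, 0 and 0 in WT hearts. Ngp (ENSMUSG00000032484, chromosome 9, 110419747 to 110423012), which encodes neutrophilic granule protein, had 0, 2, 1 and 0 counts in null hearts and 7, 2, 0 and 1 in WT hearts. Both genes were thus at the limit of detection in these libraries, and neither passed the filter on low counts. The ratio of summed counts, null over WT, was 3.16 for Camp (exact 95% interval 0.253 to 166) and 0.316 for Ngp (0.0558 to 1.23), intervals that cover counting error only. A difference between the genotypes was not detectable at this depth. When every gene with a count was tested, their edgeR quasi-likelihood adjusted p was 0.767 and 0.748.

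Lcn2 (ENSMUSG00000026822, chromosome 2, 32384633 to 32388252 in GRCm38) encodes lipocalin 2, an iron-scavenging protein of neutrophil granules that other cell types also secrete. It had 30, 90, 43 and 66 counts in null hearts and 89, 70, 44 and 59 in WT hearts. Its order over the hearts was unlike that of S100a8: null heart 2, the lowest for S100a8, was the highest for Lcn2 at 2.41 CPM. Lcn2 was 1.70 ± 0.625 CPM in null and 1.89 ± 0.498 CPM in WT (± SD over 4 hearts each), a log2 fold change of -0.15 (95% interval -0.84 to 0.55, edgeR quasi-likelihood adjusted p = 0.940). The difference in its mean CPM was smaller than the SD of either group, and the exact permutation p of that difference was 0.629 (two-sided). With S100a8 it gave r = 0.16 (permutation p = 0.700) and rho = -0.05 (permutation p = 0.935).

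Retnlg and Il1b encode secreted proteins, the first a resistin-like factor of neutrophils and the second the cytokine interleukin 1 beta, which monocytes and macrophages make as well. Retnlg (ENSMUSG00000022651, chromosome 16, 48872621 to 48874496 in GRCm38) had 7, 2, 16 and 10 counts in null hearts and 33, 10, 0 and 12 in WT hearts. WT heart 5 and null heart 3 were the highest, and no count was seen in WT heart 7. It was 0.289 ± 0.233 and 0.387 ± 0.345 CPM (± SD over 4 hearts each), a log2 fold change of -0.49 (95% interval -2.39 to 1.41, edgeR quasi-likelihood adjusted p = 0.921), and without WT heart 5 the sign turned, to 0.28. Retnlg matches the related gene Retnla at 82.8% of bases over 99.0% of its transcript, and Retnla had 856 counts over the 8 hearts, so that some reads could be shared.

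Il1b (ENSMUSG00000027398, chromosome 2, 129364570 to 129371139 in GRCm38) was the member with the lowest p. Its counts were 35, 43, 51 and 42 in null hearts and 98, 39, 87 and 83 in WT hearts. All null hearts and WT heart 6 lay between 1.05 and 1.94 CPM, and the other WT hearts between 2.30 and 2.80 CPM. The mean was 1.33 ± 0.408 in null and 2.20 ± 0.693 CPM in WT (± SD over 4 hearts each), or -0.73 ± 0.30 (SE) as a log2 fold change. The edgeR quasi-likelihood p was 0.0331 before adjustment and the adjusted p was 0.392. An unadjusted p under 0.05 was found for 11.0% of all tested genes, and for 5.52% in the direction of lower values in null hearts. The exact permutation p was 0.0571 (two-sided), where 4 against 4 hearts allow 0.0286 at the least, and WT heart 6 was the heart that overlapped with the null group. Il1b was lower in null hearts in each of 16 other fits, with log2 fold changes from -0.96 to -0.59 and adjusted p from 0.249 to 0.643. It shares 25 exonic bases with Il1bos on the opposite strand, which was not analysed here.

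The receptors Csf3r and Cxcr2 bind, in turn, the growth factor G-CSF and the CXC chemokines that draw neutrophils out of blood. Csf3r (ENSMUSG00000028859, chromosome 4, 126024550 to 126044440 in GRCm38) had 97, 69, 199 and 144 counts in null hearts and 215, 116, 164 and 161 in WT hearts. Null heart 3 was the highest at 7.56 CPM and null heart 2 the lowest at 1.85 CPM, with all WT hearts between them. The means were 4.10 ± 2.48 and 4.70 ± 0.906 CPM (± SD over 4 hearts each), a log2 fold change of -0.21 (95% interval -1.01 to 0.59, edgeR quasi-likelihood adjusted p = 0.921). Csf3r followed S100a8 over the hearts, with r = 0.88 (permutation p = 0.00322, adjusted p = 0.0226) and rho = 0.88 (permutation p = 0.00724, adjusted p = 0.0507), and r = 0.95 without hearts 5 and 8 (exact permutation p = 0.0181, n = 6). With S100a9 it gave r = 0.87 (permutation p = 0.00280, adjusted p = 0.0226) and rho = 0.86 (permutation p = 0.0107, adjusted p = 0.0563), and r = 0.84 without hearts 2 and 5 (exact permutation p = 0.0319, n = 6). Csf3r is 96.8% identical to AC105061.2 over 43.6% of its transcript, and that gene was not analysed here.

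Cxcr2 (ENSMUSG00000026180, chromosome 1, 74153989 to 74161246 in GRCm38) was the 1 tested member with a higher mean in null hearts. It had 17, 7, 32 and 26 counts in null hearts and 18, 13, 15 and 13 in WT hearts. The WT hearts were alike (0.423 ± 0.0286 CPM, SD, n = 4), while the null hearts lay on both sides of them (0.662 ± 0.432 CPM). Chi-square per degree of freedom was 9.26 in null and 0.0707 in WT hearts, so the WT counts differed by less than counting error usually gives. The log2 fold change was 0.61 (95% interval -0.42 to 1.65, edgeR quasi-likelihood adjusted p = 0.760) and the exact permutation p was 0.314 (two-sided). Single hearts moved this value. Without null heart 2, the lowest, the exact permutation p was 0.0286 for a difference of 0.395 CPM. That is the smallest p that 3 against 4 hearts allow, and the edgeR adjusted p stayed above 0.05. Without null heart 3, the highest, the log2 fold change was 0.17 (edgeR quasi-likelihood adjusted p = 0.966). Leaving out 1 heart at a time gave differences from 0.0541 to 0.395 CPM.

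**Figure D2:**
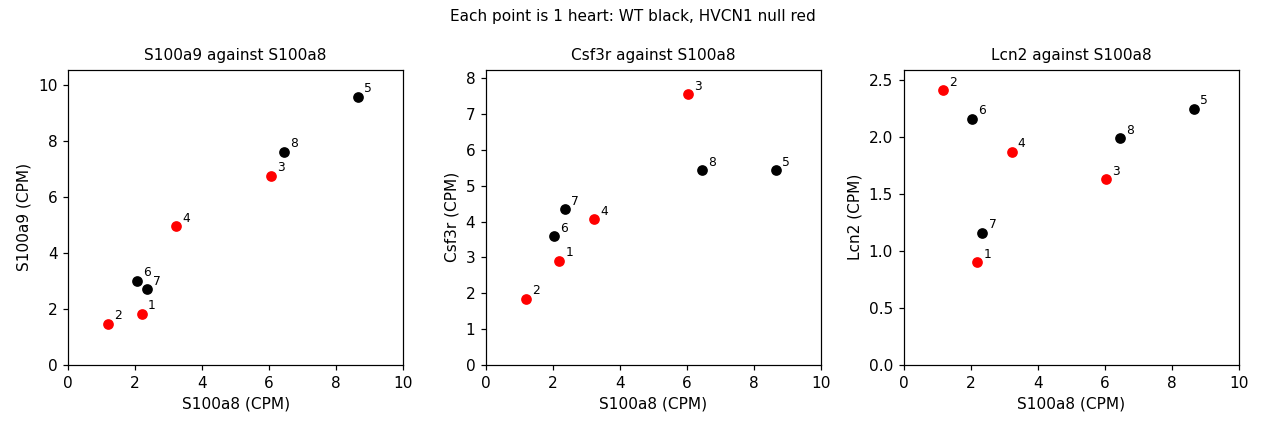
S100a9, Csf3r and Lcn2 plotted against S100a8, all in CPM, with 1 numbered point per heart (WT black, HVCN1 null red). S100a9 and Csf3r rise with S100a8 in both groups, and Lcn2 shows no such order.

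Of the 9 genes, 7 passed the filter on low counts and 0 of these 7 were called at an edgeR quasi-likelihood adjusted p under 0.05, where 1.14% of 14796 tested genes were called and 0.399% were called lower in null hearts. At an unadjusted p under 0.05 there was 1, Il1b. DESeq2, edgeR's exact test and limma's voom also called 0 of the 7. Log2 fold changes were below 0 for 6 of the 7, with a median of -0.49. Over all tested genes 52.7% lay below 0 and the median was -0.01. These signs are not independent of each other, since S100a8, S100a9 and Csf3r rose and fell together over the same hearts. Retnlg and Il1b went with them in part. Retnlg gave rho = 0.88 with S100a9 (permutation p = 0.00724, adjusted p = 0.0507) and r = 0.76 (permutation p = 0.0250, adjusted p = 0.109). Without hearts 2 and 5 that r was 0.59 (exact permutation p = 0.204, n = 6). Il1b gave r = 0.75 with S100a8 (permutation p = 0.0492, adjusted p = 0.117) and rho = 0.76 (permutation p = 0.0368, adjusted p = 0.110). Without hearts 5 and 8 that r was 0.49 (exact permutation p = 0.369, n = 6). Between Retnlg and Il1b r was 0.22 (permutation p = 0.578). In bulk tissue a smaller number of neutrophils and less RNA per neutrophil cannot be told apart. The pooled counts gave narrower ranges than the hearts did: the count ratio of S100a8, null over WT, was 0.596 with an exact 95% interval of 0.525 to 0.676, which covers counting error only and leaves out the spread between hearts.

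**Figure D3:**
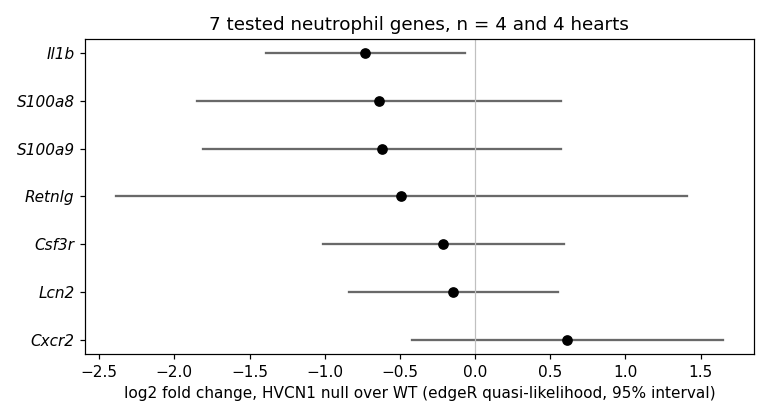
Log2 fold change, HVCN1 null over WT, of the 7 neutrophil genes that passed the filter (points) with 95% intervals from edgeR's quasi-likelihood fit (n = 4 and 4 hearts). The interval of Il1b lies below 0 before adjustment over all genes (-1.39 to -0.07), and the other 6 include 0.

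Per kilobase of exon, levels in WT hearts fell in the order S100a9, S100a8, Csf3r, Il1b, Lcn2, Retnlg, Cxcr2, Ngp and Camp. S100a9 was at 10.9 ± 6.53 CPM per kilobase and S100a8 at 7.02 ± 4.64 (SD, n = 4). These SDs are spreads between hearts in which both genes moved together. They do not measure the difference between the pair, which was not tested. Csf3r followed at 1.30 ± 0.251, close to Il1b at 1.15 ± 0.363. Lcn2 (0.722 ± 0.190) and Retnlg (0.653 ± 0.582) had overlapping spreads, and that of Retnlg reached the level of Cxcr2 (0.139 ± 0.00937). Ngp and Camp, at 0.0558 ± 0.0629 and 0.0102 ± 0.0204, overlapped with each other and lay under Cxcr2. In null hearts the first 3 places were the same, with S100a9 at 7.19 ± 4.87, S100a8 at 4.55 ± 3.02 and Csf3r at 1.14 ± 0.688.

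Other granule genes ranged from no count in any heart to 1413 counts over the WT hearts for Cybb. Of 4 proteins of the primary granules, none passed the filter: Ctsg (cathepsin G) had no count in any heart, Mpo (myeloperoxidase) had 2 counts in each group, Elane (neutrophil elastase) 1 and 3, and Prtn3 (proteinase 3) 16 and 19. Cebpe, the C/EBP factor needed to form secondary granules, had no count in any of the 8 hearts either, which allows up to 3 counts in each. Of 10 genes of the later granules 6 were tested and 0 were called. Ltf (lactoferrin) had 7 counts in null and 13 in WT hearts, and Mmp8 (neutrophil collagenase) had 9 and 31. Mmp9 (gelatinase B), with 505 and 713 counts, and Hp (haptoglobin), with 402 and 649, are also made by other cell types. The gene of this list with the highest CPM, Cybb, is a membrane component that macrophages share, at 8.09 ± 1.11 CPM in null and 10.1 ± 1.42 CPM in WT hearts. Among the 6 tested genes, Chil3 had the log2 fold change farthest from 0, at -0.62 with 28 and 47 counts (edgeR quasi-likelihood adjusted p = 0.858). All 6 were below 0, with a median of -0.39.

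Among 13 surface proteins of mature neutrophils 4 passed the filter and 0 were called, with a median log2 fold change of -0.09. With the genes that the filter drops for low counts included, the median was -0.62. Fcgr4, an IgG receptor of neutrophils, monocytes and macrophages, stood out. It had 8, 6, 14 and 3 counts in null hearts and 53, 28, 45 and 21 in WT hearts, without overlap, as was the case for 7.06% of tested genes in either direction and 3.45% with null hearts lower. At 0.254 ± 0.196 and 1.03 ± 0.290 CPM (± SD over 4 hearts each) its log2 fold change was -2.07 ± 0.47 (SE, adjusted p = 0.0791 by edgeR's quasi-likelihood test). The adjusted p was 0.00441 with DESeq2 and 0.00169 with edgeR's exact test, and over 15 alternatives it ran from 0.00169 to 0.203. Ly6g, the antigen used to sort neutrophils, had no count in any null heart and 3, 1, 1 and 1 in WT hearts (edgeR quasi-likelihood adjusted p = 0.428 without a filter). Cxcr1, the relative of Cxcr2, had 2 counts in all.

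In 12 other transcripts enriched in neutrophils, 7 were tested and 0 were called, with a median log2 fold change of -0.03, 3 above and 4 below 0. That median rests on the genes with more counts, and without the filter on low counts it was -0.35. Lrg1, a secreted glycoprotein that endothelium also makes, had the highest CPM of its list at 37.4 ± 7.03 CPM in null and 39.9 ± 5.95 CPM in WT hearts. Hdc (histidine decarboxylase) had the log2 fold change farthest from 0 of those tested, -0.47 (edgeR quasi-likelihood adjusted p = 0.623). Of 6 transcription factors of myeloid cells, Spi1 (PU.1) was at 5.14 ± 0.440 and 6.93 ± 1.73 CPM (log2 fold change -0.44, edgeR quasi-likelihood adjusted p = 0.380), and Cebpb had the highest CPM of its list at 48.0 ± 14.5 and 38.3 ± 9.17 CPM.

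The NADPH oxidase of phagocytes, whose work HVCN1 supports, was followed by 6 subunits, all tested and 0 called, with a median log2 fold change of -0.17. Cybb (NOX2) had the log2 fold change farthest from 0, -0.32 (standard error 0.14, edgeR quasi-likelihood adjusted p = 0.421). Cyba (p22phox) had the highest CPM of its list at 28.4 ± 6.58 CPM in null and 26.2 ± 3.21 CPM in WT hearts. These genes are shared with macrophages and are no measure of neutrophils alone.

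Ligands of the receptors were low, apart from Ppbp. Csf3, which encodes G-CSF, had no count in any heart. Of the CXCR2 ligands Cxcl1 had 33, 27, 13 and 20 counts in null and 59, 28, 40 and 37 in WT hearts, with 0.693 ± 0.220 and 1.17 ± 0.268 CPM and a log2 fold change of -0.74 ± 0.29 (SE, adjusted p = 0.363 by edgeR's quasi-likelihood test). Cxcl2 and Cxcl3 had 17 and 1 counts in null and 25 and 6 in WT hearts, while Cxcl5 had 10 and 47. Ppbp, a platelet gene, had the highest CPM of its list at 9.66 ± 10.7 and 6.73 ± 4.51 CPM.

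Il1b is cut to its active form by the inflammasome, and 5 of 8 genes of the interleukin 1 system were tested, with 0 called and a median log2 fold change of -0.18. Nlrp3, the inflammasome sensor, had 23, 17, 9 and 16 counts in null hearts and 46, 26, 36 and 22 in WT hearts. Its groups did not overlap in CPM (0.485 ± 0.147 and 0.916 ± 0.188, SD, n = 4 each), as for 3.45% of tested genes with null hearts lower. The log2 fold change of -0.91 (standard error 0.29) had an edgeR quasi-likelihood adjusted p of 0.233. The receptor Il1r1 had the highest CPM of its list at 16.1 ± 4.23 and 18.3 ± 1.16 CPM. Receptors of the secreted members were all tested and 0 of 4 were called: Tlr4, which binds S100A8 and S100A9, was at 10.1 ± 2.67 and 10.7 ± 1.60 CPM, and Lrp2, an endocytic receptor that takes up lipocalin 2, had a log2 fold change of -0.57 (edgeR quasi-likelihood adjusted p = 0.921).

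Markers of other blood and tissue cells moved over the same hearts in part. Erythroid markers, which blood left in the tissue carries, summed to 1320 to 8510 CPM in null and 3090 to 15400 CPM in WT hearts, and 8 of 8 had a log2 fold change below 0 (median -0.99, 0 called). WT heart 5 was the highest for these and for S100a8 and S100a9, and null hearts 1 and 2 were the lowest for erythroid markers and low for both genes. The order was not the same throughout: null heart 4, at 8510 CPM, had 3.22 CPM of S100a8, and null heart 3, at 3270 CPM, had 6.04. Platelet markers summed to 15.2 to 54.7 CPM in WT hearts and reached 76.1 CPM in null heart 4, the highest of the 8 hearts, while null hearts 1 and 2 were the lowest (13.8 CPM in heart 2). For platelets 4 of 5 markers had a log2 fold change above 0 (median 0.52, 0 called). B cell markers summed to 23.0 to 39.6 CPM in null and 28.0 to 36.5 CPM in WT hearts, with 6 of 7 above 0 (median 0.10, 0 called), and 5 of 7 T cell markers were above 0 (median 0.02, 0 called). None of these markers was at 0 over the 8 hearts, and their part in the neutrophil values was not tested.

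Macrophage and monocyte markers are the closest relatives of this list. All 12 macrophage markers had log2 fold changes below 0, with a median of -0.30 and 0 called, and summed to 237 to 303 CPM in null and 269 to 379 CPM in WT hearts. Cx3cr1, a chemokine receptor of macrophages and monocytes, had the log2 fold change farthest from 0 among them, -0.92 with a standard error of 0.19. For this gene edgeR's quasi-likelihood test gave 0.0561 as the adjusted p. Of the 12 markers only Cx3cr1 had separate groups, and 3.45% of all tested genes lay lower in null hearts without overlap. The 5 monocyte markers were less uniform: all were tested and 0 were called, with 3 below 0, 2 above 0 (Ly6c2 0.20, Vcan 0.10) and a median of -0.26. Farthest from 0 among them was Ccr2, the receptor of inflammatory monocytes, at 1.30 ± 0.373 CPM in null and 3.20 ± 0.924 CPM in WT hearts. Its log2 fold change was -1.30 ± 0.27 (SE, adjusted p = 0.0527 by edgeR's quasi-likelihood test). Over 16 alternative fits the adjusted p ran from 0.00188 (DESeq2) to 0.168 for Cx3cr1 and from 0.000987 (DESeq2) to 0.158 for Ccr2. Both genes were called with DESeq2, with edgeR's exact test (0.00434 and 0.00206), with no filter on low counts (0.0393 and 0.0302), with the atrial markers as covariate, chosen after seeing the data (0.0440 and 0.0345) and without null heart 4 (0.0250 and 0.0305). Monocytes also express S100a8, S100a9, Il1b and Fcgr4, and their part in the values of these genes was not tested. The summed macrophage markers varied less over the hearts than the 9 neutrophil genes, whose sum ran from 8.37 to 25.8 CPM in null and 12.8 to 29.9 CPM in WT hearts.

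**Figure D4:**
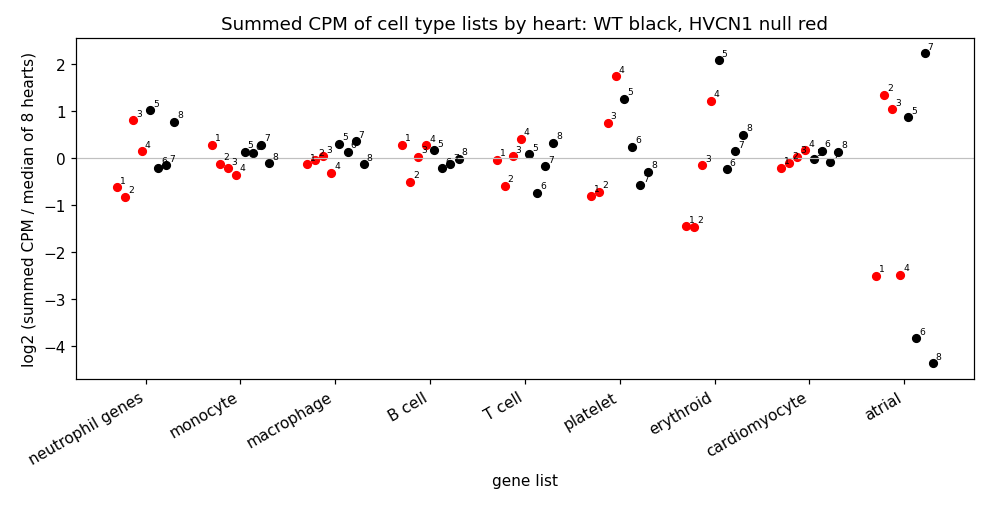
Summed CPM of the 9 neutrophil genes and of the markers of 8 other cell types in each heart, as log2 of the ratio to the median of the 8 hearts (WT black, HVCN1 null red, heart numbers beside the points). Erythroid, platelet and atrial sums vary most between hearts, and macrophage sums vary less than the neutrophil sum.

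The 5 other genes whose log2 CPM was closest to the mean standardised level of the 7 tested members over the 8 hearts were Gm13056 (Pearson's r = 0.972), Pik3cd (0.959), Tmem150a (0.955), Ric8a (0.953) and Trit1 (0.951). These values describe a likeness over 8 libraries and carry no test. Pik3cd, the leukocyte form of phosphoinositide 3-kinase, ran from 7.06 CPM in null heart 2 to 10.7 CPM in WT heart 5, the hearts that were lowest and highest for S100a8. Gm13056 ran from 0.214 to 0.784 CPM in the same 2 hearts. Tmem150a ran from 29.2 (null heart 2) to 37.5 CPM (null heart 3), and Ric8a from 20.6 (null heart 1) to 24.5 CPM (WT heart 5). Trit1 ran from 3.83 (null heart 2) to 5.40 CPM (WT heart 8). Whether the likeness stems from leukocytes was not tested.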

How the data were processed

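RNA was measured by poly-A selected RNA-seq in 1 library per heart, 4 HVCN1 null and 4 WT. Per the labels, the authors aligned reads with STAR to mm10 (GRCm38) and counted them per gene with featureCounts, with versions, settings and strand not given in the sources used here; the study's methods name a human build, while the gene identifiers are of mouse. The deposited values are raw counts for 39056 genes. Groups and heart numbers came from the sample labels, which name no batch.

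Of the identifiers, 38872 (99.5%) matched the GENCODE M21 annotation of GRCm38. Genes were kept by edgeR's filterByExpr (minimum count 10), leaving 14796, and tested by edgeR's quasi-likelihood test on genotype with TMM scaling and Benjamini-Hochberg adjustment at 0.05. The filter dropped Camp and Ngp. CPM was compared by exact permutation of the genotype over all 70 ways to split the hearts (two-sided), and pairs of genes by Pearson's and Spearman's correlation of log2 CPM (prior count 2) with permutation p. Count ratios have exact 95% intervals for counting error only. Transcripts were compared by BLAST+ 2.17.0.

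The 9 genes and the related lists were chosen with earlier results of these data known. Named from each list were genes called, the tested gene with the largest change, the gene with the highest CPM (not scaled by length) and genes without counts. The gene with the highest CPM of 1 list is not reported here. Mpo, Elane, Prtn3, Ltf, Mmp8, Ly6g, Cxcr1, Mmp9, Hp, Cxcl2, Cxcl3 and Cxcl5 were added after their values were seen. Alternatives were other scalings and filters, DESeq2, edgeR's exact test, limma's voom and leaving out each heart. A fit with atrial markers as covariate was chosen after seeing the data. R 4.3.3, edgeR 4.0.16, limma 3.58.1, DESeq2 1.42.0, Python 3.11.15 and matplotlib 3.10.9 were used.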

Additional observations from a re-analysis of the deposited data

Results flagged for a closer look

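Single hearts stood apart from the other 3 of their group, with a gap to the nearest heart, over the range of the group, past Dixon's 95% limit, in 3 of 52 groups of values, and chance alone gives about 1 in 20. For Il1b, null heart 3 was at 1.94 CPM and the nearest null heart at 1.19 CPM (gap over range 0.847). For Camp, WT heart 6 was at 0.0309 CPM, which is 1 count, and the other WT hearts had none. The summed erythroid markers were 1.54e+04 CPM in WT heart 5 against 5.14e+03 CPM in the nearest WT heart (gap over range 0.834), and heart 5 was also the highest for S100a8, S100a9 and Retnlg.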

How the results depend on the processing

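None of the 7 tested genes was called in any of 16 alternative fits, and S100a8, S100a9 and Il1b stayed lower and Cxcr2 higher in null hearts in all fits that kept them. Over all genes, DESeq2 called 466 and edgeR's exact test 367, against 169. Leaving out 1 heart at a time gave 71 (without WT heart 6) to 152 called genes, and log2 fold changes from -0.37 to 0.06 (Lcn2, above 0 without null heart 1), -1.09 to 0.28 (Retnlg, without WT heart 5) and -0.68 to 0.04 (Csf3r, without null heart 2). CPM differences, null minus WT, ran likewise from -0.425 to 0.0755 for Lcn2, -0.225 to 0.0530 for Retnlg and -1.75 to 0.147 for Csf3r. With limma's voom the log2 fold change of Retnlg was 0.18, and the cause was not tested. With CPM above 1 in at least 4 hearts, Retnlg and Cxcr2 were not kept. With the atrial markers as covariate, chosen after seeing the data, 240 genes were called, none of them among the 9. No paired analysis was possible because heart numbers run from 1 to 8 and none occurs in both genotypes. Counts of 0 to 7 per heart limit Camp and Ngp.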
